A study of Arabidopsis thaliana with 32 samples.

Results

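The genes carried by the mitochondrial genome of Arabidopsis thaliana were taken as all loci of the array whose identifier begins with ATMG. There are 97 such loci among the 30385 loci measured, and each has a value on every array, so none was lost to a filter. Whole seedlings of the sahh1 mutant and of Columbia wild type were harvested at 1, 4, 7 and 10 days, giving 8 groups of 4 single-colour arrays. The mutant is deficient in S-adenosylhomocysteine hydrolase 1, the enzyme that breaks down the by-product of methylation reactions, and the labels name neither its allele nor its background. The question put by the series is how transcript levels of the mutant differ from wild type at each seedling age.

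Plant mitochondria keep a small genome of their own. It encodes part of the subunits of the respiratory complexes and of ATP synthase, proteins for cytochrome c maturation, some ribosomal proteins, ribosomal and transfer RNAs, and many open reading frames without a known function. It is transcribed by nuclear-encoded, phage-type RNA polymerases, and its RNAs are spliced and edited by nuclear-encoded proteins. Most mature mitochondrial transcripts in plants lack a stable poly(A) tail. In the Columbia accession a large copy of mitochondrial DNA also lies near the centromere of chromosome 2, so that probes for a mitochondrial locus can match a nuclear one as well. The reference annotation used here pairs 0 of the 97 ATMG identifiers with a gene name, and the loci are therefore given by identifier alone.

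Arrays 1 and 2 of every group, and arrays 3 and 4, resembled each other more than they resembled the other pair. Over the mitochondrial loci the median absolute log2 difference was 0.0645 to 0.356 between arrays of a pair and 0.141 to 2.27 between arrays of different pairs. Each pair was averaged into 1 sample, which leaves 16 samples and n = 2 for each group. What the pairs are, and whether samples came from separate cultures, is not given in the labels, so p-values measure the spread between these samples, which may be technical. The median intensity of an array depended on age: it was 449 to 493 for the arrays of day 4 and 1793 to 1945 for those of day 7, with days 1 and 10 in between. Genotypes were compared within an age on the deposited values, and ages were compared after quantile normalization, which gives all arrays the same distribution. SAHH1, listed as HOG1, stood at 41.6% of wild type in sahh1 at day 1 and 34.5% at day 4 (limma, adjusted p = 0.0117 and 0.0144). At day 7 it stood at 71.7% and at day 10 at 58.8%, neither past the threshold (adjusted p = 0.723 and 0.276). The day 1 call was lost when any of the 4 samples of that age was left out (adjusted p = 0.0634 to 0.108), and the day 4 call when wild-type sample 1 or 2 was (adjusted p = 0.0710 and 0.106). The day 4 call was also lost with array weights (adjusted p = 0.103) and with only the 2 groups of that age in the fit (adjusted p = 0.542), and the day 10 difference was called in 5 of 27 alternatives.

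Mitochondrial transcripts were high in 1-day seedlings of both genotypes and much lower in 4-day seedlings. The median log2 level of the 97 loci after quantile normalization was 11.07 and 11.10 in the 2 sahh1 samples of day 1, and 11.24 and 11.01 in those of wild type. At day 4 it was 10.26 and 8.67 in sahh1 and 8.54 and 8.17 in wild type. At day 7 it was 8.82 and 10.21 in sahh1 and 9.26 and 10.18 in wild type, and at day 10 it was 9.67 and 10.40 in sahh1 and 10.75 and 9.36 in wild type. The 4 samples of day 1 thus lay above every later sample. From day 4 on, the 2 samples of a genotype differed from each other by more than the genotypes did, except that both wild-type samples of day 4 were low.

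**Figure D1:**
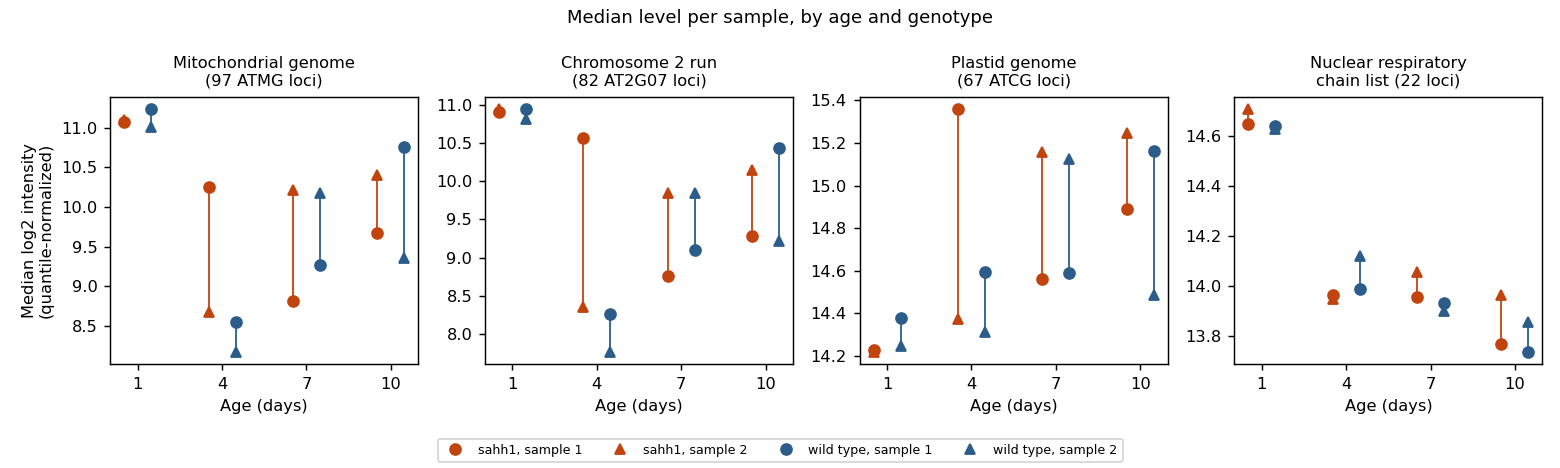
Median log2 intensity after quantile normalization (y axis) by age in days (x axis) for 4 sets of loci; circles are sample 1 and triangles sample 2 of a group, joined by a line, with sahh1 left of wild type. The mitochondrial loci and the chromosome 2 run start near 11 at day 1 and are lowest in wild type at day 4, with sahh1 sample 1 of day 4 well above sample 2, while the nuclear respiratory chain list varies much less between samples of a group.

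In wild type all 97 loci had lower means at day 4 than at day 1. Of them, 85 were called lower at day 4 and 0 higher (limma, Benjamini-Hochberg adjusted p under 0.05), where 27.7% of all loci were called lower and 24.1% higher. The median log2 difference, day 4 minus day 1, was -2.76 with a range of -5.09 to -1.21, against a median of -0.0037 over all loci. Both day 4 samples lay below both day 1 samples for 97 of 97 loci, which held for 40.5% of all loci. The mean was lower by more than 2 on the log2 scale at 76 loci, and by more than 4 at 7 of them. Leaving out 1 of the 4 wild-type samples of these ages left 44 to 56 loci called, with medians of -2.96 to -2.51.

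In sahh1 the 97 means were lower at day 4 too, and 42 of the differences passed the test. Of the 97 loci these 42 were called lower and 0 higher, where 26.3% of all loci were called lower and 22.8% higher. The median difference was -1.68 with a range of -4.18 to -0.26, and 97 of 97 differences were negative. Both day 4 samples lay below both day 1 samples for 70 of 97 loci, against 36% of all loci. All 42 loci called in sahh1 were among the 85 called in wild type, and 12 loci were called in neither genotype. The fitted fall was larger in wild type at 89 of 97 loci, and whether the genotypes differ in it is tested below.

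The size of the fall in sahh1 rests on which day 4 sample is used. Without sahh1 sample 1 of day 4 the median was -2.85, and without sahh1 sample 2 of day 4 it was -0.56. Each of these fits leaves 1 sahh1 sample at day 4, which gives no spread of its own. Leaving out sahh1 sample 1 or sample 2 of day 1 left 16 or 14 loci called.

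The largest called falls in wild type were those of ATMG00920 and ATMG00910. ATMG00920 measured 5.66 and 5.56 at day 4, against 10.69 and 10.71 at day 1, a difference of -5.09 ± 0.87 (log2, SE; limma, adjusted p = 0.000555). ATMG00910 measured 4.62 and 4.26 at day 4, against 9.37 and 9.35 at day 1, a difference of -4.92 ± 0.75 (limma, adjusted p = 0.000259). For both loci the 2 ages were separated by far more than the samples of an age. The day 4 values of ATMG00910 are about as low as those of AOX1B, a dim nuclear gene (5.50 and 4.22 in the same samples). On deposited values they were 5.23 and 5.07, so the size of its changes depends on how such low values are normalized. In sahh1 the same loci were split between the samples: ATMG00920 measured 9.32 and 5.98 at day 4, against 10.74 and 10.66 at day 1, and ATMG00910 measured 7.66 and 4.64 at day 4, against 9.48 and 9.51 at day 1.

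The largest called falls in sahh1 were those of ATMG00110 and ATMG00860, and both carried the same split. ATMG00110 measured 11.31 and 4.50 at day 4, against 12.19 and 11.96 at day 1, a difference of -4.18 ± 1.54 (limma, adjusted p = 0.0440). ATMG00860 measured 9.99 and 4.53 at day 4, against 11.07 and 11.51 at day 1, a difference of -4.03 ± 1.32 (limma, adjusted p = 0.0263). At both loci sample 2 lay far under sample 1, which was itself below both samples of day 1. The sample 2 values were low ones, under that of AOX1B in the same sample (6.25), so the sizes of these falls are uncertain. Without sample 2 of day 4 neither fall passed the test (limma, adjusted p = 0.275 and 0.175), and without sahh1 sample 1 or 2 of day 1 neither did (adjusted p = 0.0760 to 0.140). Over all 25 alternatives the call of ATMG00110 was lost in 17 and that of ATMG00860 in 3.

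**Figure D2:**
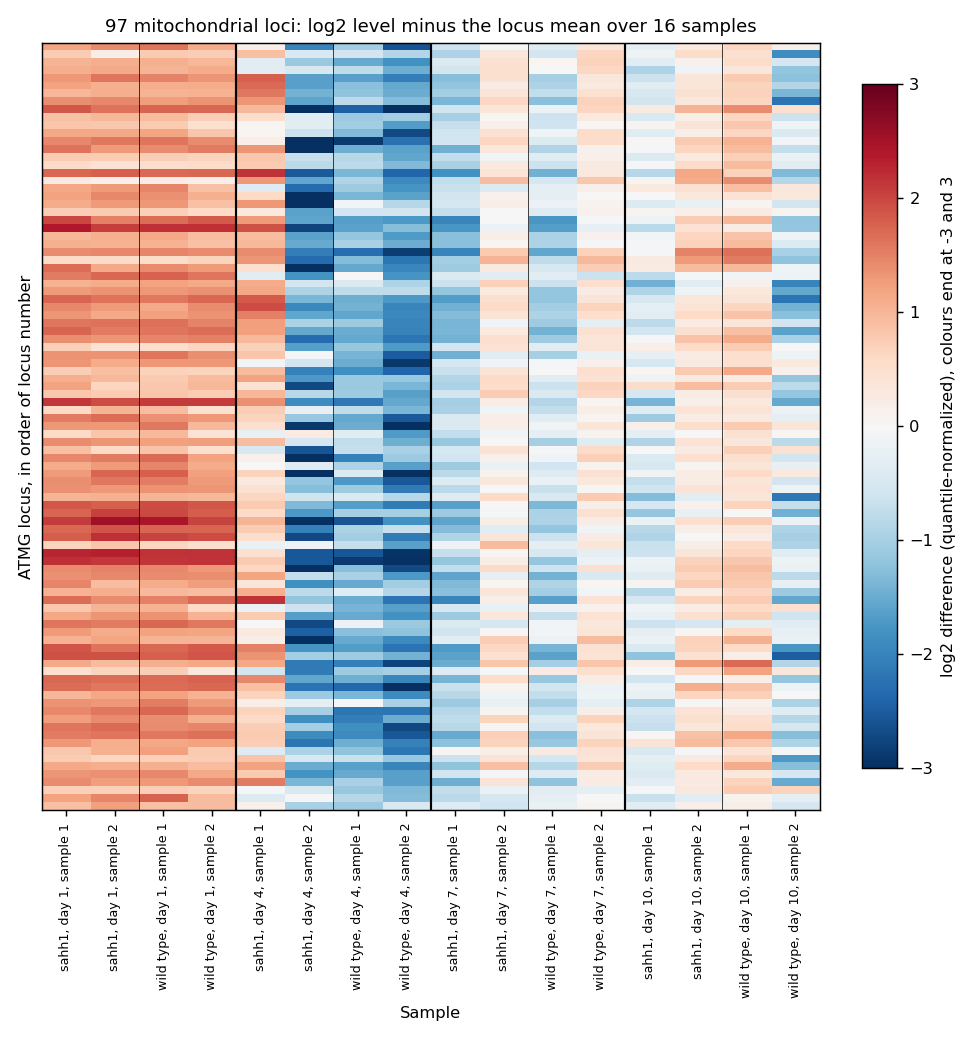
Each row is 1 of the 97 mitochondrial loci and each column 1 of the 16 samples; colour is the log2 level after quantile normalization minus that locus's mean over the samples, red above and blue below, with colours ending at -3 and 3. The 4 columns of day 1 are red or pale red, the day 4 columns of wild type and of sahh1 sample 2 are mostly blue, and sahh1 sample 1 of day 4 is mostly red.

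In wild type nearly all loci had higher means at day 7 than at day 4. The median difference, day 7 minus day 4, was 1.31, and 96 of 97 loci had a positive difference. Of these 14 were called higher and 0 lower, against 10.9% of all loci called higher and 11.4% lower. Both day 7 samples lay above both day 4 samples for 79 of 97 loci, against 32.5% of all loci. All 14 were among the loci called lower between day 1 and day 4, a comparison that shares the day 4 samples. All 97 mean levels of day 7 were still below those of day 1.

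Among the called rises in wild type, those of ATMG00910 and ATMG00630 were the largest. ATMG00910 measured 6.71 and 6.91 at day 7, against 4.62 and 4.26 at day 4, a difference of 2.37 ± 0.75 (limma, adjusted p = 0.0457). Its day 4 values are the low ones described above, which limits the size of this rise as well. ATMG00630 measured 11.53 and 12.04 at day 7, against 9.70 and 9.14 at day 4, a difference of 2.37 ± 0.76 (limma, adjusted p = 0.0479). For each locus the ages did not overlap, although both calls lie close to the threshold and were lost in 17 and 15 of the 25 alternatives tried. The number of loci called moved between 3, without wild-type sample 2 of day 7, and 38, without either sahh1 sample of day 4. These sahh1 samples enter only through the shared estimate of spread. Without wild-type sample 2 of day 4 there were 4 calls, without sample 1 of day 7 there were 8, and without either sahh1 sample of day 1 there were 9.

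In sahh1 the means of day 7 and day 4 were not separated. Between day 4 and day 7, 0 of 97 loci were called by limma and 4 had an unadjusted p under 0.05, while 5.72% of all loci were called higher and 5.88% lower. The median difference was 0.0035, with 51 loci positive and 46 negative. That median was 1.16 without sahh1 sample 1 of day 4 and -1.11 without sample 2. Between day 7 and day 10, 0 loci were called in either genotype, with 1 and 2 loci at an unadjusted p under 0.05 in sahh1 and wild type. The medians there were 0.41 in sahh1 and 0.23 in wild type, and their signs are not fixed. On deposited values they were -0.53 in sahh1, with 12 loci called lower, and -0.62 in wild type, with 7 called lower, where the median of all loci was -0.69 in both. Leaving out 1 sample moved them between -0.14 and 0.97 in sahh1 and between -0.42 and 0.81 in wild type. All loci were called higher and lower at 0.23% and 0.237% in sahh1 and at 0.197% and 0.0954% in wild type. At day 10 the mean was still under that of day 1 for 95 of 97 loci in sahh1 and 94 of 97 in wild type.

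Whole seedlings were measured, so fewer cells rich in mitochondria, fewer mitochondria per cell and less RNA per mitochondrion cannot be told apart. Array medians also differ by age and hardly within an age, so that age cannot be told apart from a hybridisation or normalization done by age. On the deposited values, without quantile normalization, the median difference, day 4 minus day 1, was -2.67 in sahh1 and -3.67 in wild type, where the median of all loci was -0.54 and -0.48.

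In 1-day seedlings the mean levels of the genotypes lay close together. At day 1 the median difference, sahh1 minus wild type, was 0.017, and single loci lay between -0.23 and 0.29. Of the 97 loci 0 were called by limma and 0 had an unadjusted p under 0.05, while 2.46% of all loci were called. Both sahh1 samples lay above both wild-type samples for 13 loci, against 18.2% of all loci, and below both for 6, against 23.7%. The median spread between the 2 samples of a group at day 1 was small, with an SD of 0.112 in sahh1 and 0.0897 in wild type, against 0.106 and 0.0919 over all loci. The test, however, uses an estimate of spread that is shared by all groups, and later groups spread more, with a median SD of up to 1.53. Day 1 differences of this size could hardly be called, so the 0 calls do not show that the genotypes are equal.

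At day 4 mitochondrial transcripts averaged higher in sahh1 than in wild type. On the deposited values the median level was 9.26 and 7.36 in the sahh1 samples, against 7.55 and 7.13 in the wild-type samples. The median difference was 1.08, with 93 of 97 loci positive and a range of -0.21 to 2.43, against 0.016 over all loci. Of the 97 loci 2 were called higher and 0 lower, where 0.78% of all loci were called higher and 0.833% lower, and 19 loci had an unadjusted p under 0.05. Both sahh1 samples lay above both wild-type samples for 36 loci, against 18.6% of all loci, and below both for 0, against 16.4%. Sahh1 sample 1 lay above the wild-type mean at 97 of 97 loci, which alone fixes the 0. The 36 therefore depends mainly on sample 2, and these counts do not show that both sahh1 samples were raised.

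The difference of the means came from 1 of the 2 sahh1 samples. Sample 1 lay above the wild-type mean at 97 of 97 loci, with a median difference of 2.13 and a range of 0.36 to 4.21. Sample 2 lay above it at 50 loci and below it at 47, with a median of 0.038 and a range of -1.51 to 1.55. A fit without 1 of them leaves 1 sahh1 sample with no spread of its own, so only its median is given. It was 2.13 without sample 2 and 0.038 without sample 1. ATMG00280 and ATMG01060 are named because of the fit without sample 1. Against the wild-type mean they stood at -1.12 and -1.03 in sample 2, and at 0.87 and 0.77 in sample 1. Among the plastid-encoded loci, whose identifiers begin with ATCG, sample 1 stood out too. Their median against the wild-type mean was 1.31 in sample 1 and -0.18 in sample 2. Over all loci the corresponding medians were -0.015 and 0.030, and over the list of nuclear-encoded respiratory chain genes they were -0.22 and -0.017. The part of plastid RNA in the result was not tested.

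**Figure D3:**
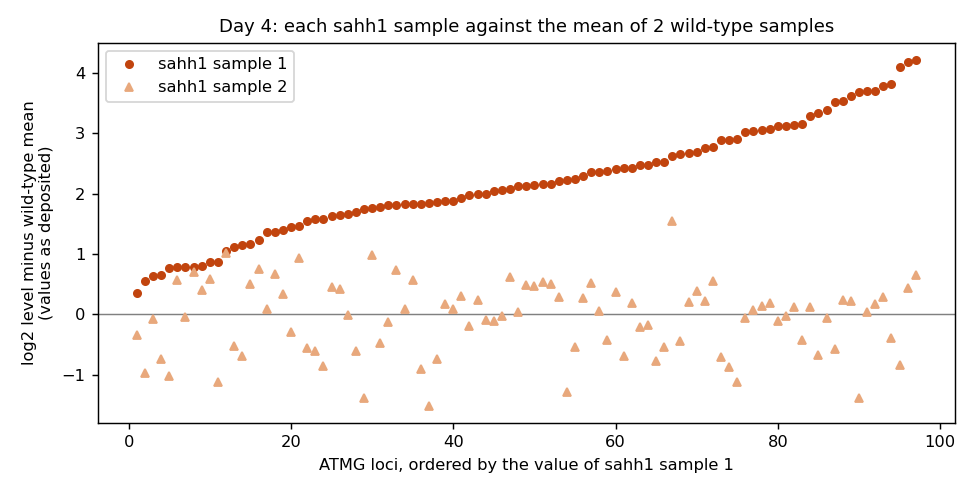
For each of the 97 mitochondrial loci at day 4, the log2 level of sahh1 sample 1 (circles) and sample 2 (triangles) minus the mean of the 2 wild-type samples, on the deposited values, with loci ordered along the x axis by sample 1. All circles lie above 0, at 0.36 to 4.21, while the triangles scatter on both sides of 0, at -1.51 to 1.55.

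The 2 loci called at day 4 were among those where both sahh1 samples exceeded both wild-type samples. ATMG00600 measured 9.26 and 8.19 in sahh1, against 7.06 and 6.22 in wild type, a difference of 2.08 ± 0.44 (log2, SE; limma, adjusted p = 0.0419). ATMG01370 measured 9.68 and 9.21 in sahh1, against 8.56 and 8.36 in wild type, a difference of 0.99 ± 0.20 (limma, adjusted p = 0.0367). In both loci the lower sahh1 sample was still above the higher wild-type sample. The calls were not stable, being lost in 14 and 15 of the 27 alternatives tried, with adjusted p up to 0.808 and 0.760. Without sahh1 sample 1 of day 4 both were lost (adjusted p = 0.0920 and 0.0646). Leaving out either sample of day 1 in either genotype, either wild-type sample of day 4 or either wild-type sample of day 10 left 0 loci called, and leaving out either wild-type sample of day 7 left 1. The call of ATMG00600 was also lost without sahh1 sample 1 or 2 of day 10. No call was made at ATMG00600 or ATMG01370 at the other ages. ATMG00600 measured 10.88 and 10.94 in sahh1 and 11.21 and 10.98 in wild type at day 1, 9.05 and 10.09 in sahh1 and 9.48 and 10.16 in wild type at day 7, and 9.22 and 9.66 in sahh1 and 9.95 and 9.34 in wild type at day 10. Its genotypes overlapped at days 7 and 10, and at day 1 both sahh1 samples were just below both wild-type samples. ATMG01370 measured 11.58 and 11.63 in sahh1 and 11.66 and 11.56 in wild type at day 1, 11.00 and 11.44 in sahh1 and 11.33 and 11.31 in wild type at day 7, and 10.66 and 11.04 in sahh1 and 11.51 and 11.41 in wild type at day 10. At day 10 both sahh1 samples of ATMG01370 were thus below both wild-type samples, and its difference of -0.61 was the lowest of the 97 loci.

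**Figure D4:**
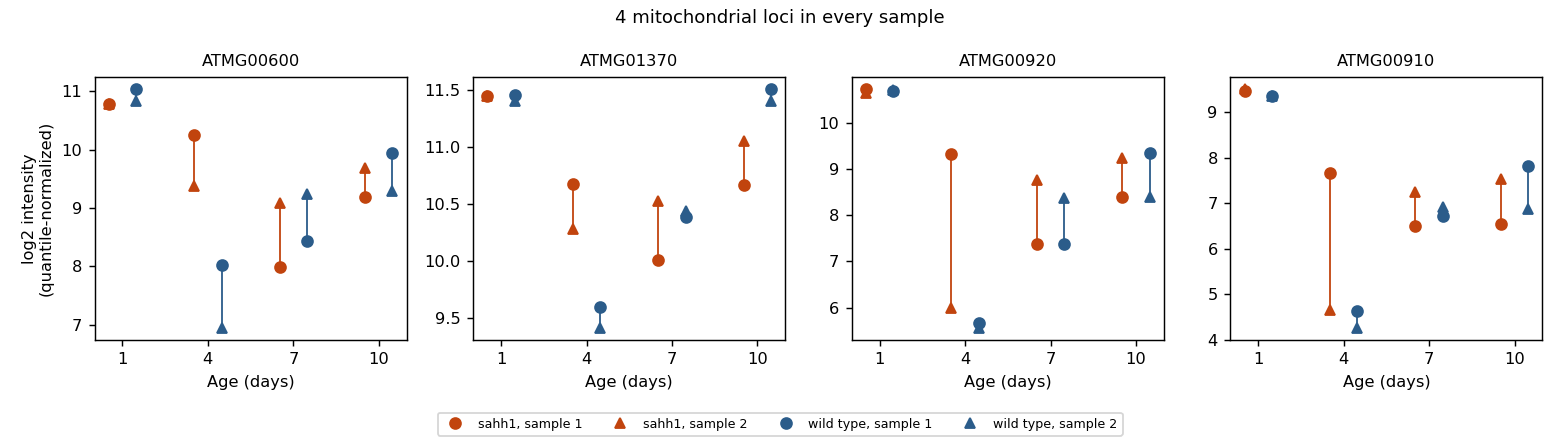
Log2 intensity after quantile normalization (y axis) by age in days (x axis) at 4 mitochondrial loci, with circles for sample 1 and triangles for sample 2, joined by a line, and sahh1 left of wild type. At ATMG00600 and ATMG01370 both sahh1 samples of day 4 lie above both wild-type samples, while at ATMG00920 and ATMG00910 sahh1 sample 2 of day 4 lies close to wild type.

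At days 7 and 10 the mitochondrial loci did not separate the genotypes. At day 7 the median level was 9.87 and 11.15 in sahh1, against 10.29 and 11.07 in wild type, and at day 10 it was 9.68 and 10.37 in sahh1, against 10.76 and 9.41 in wild type. The median differences were -0.13 at day 7 and -0.051 at day 10. Limma called 0 of 97 loci at either age, against 0.629% and 1.02% of all loci, and 0 and 1 loci had an unadjusted p under 0.05. Both sahh1 samples lay below both wild-type samples for 8 and 10 loci, against 16.6% and 19.4% of all loci, and above both for 0 and 0, against 19.4% and 16.5%. Leaving out 1 sample moved the median between -0.70 and 0.47 at day 7 and between -0.64 and 0.55 at day 10, so its sign depends on the sample.

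The change of the genotype difference with age was tested directly. By limma's F test over the 4 ages, 0 of 97 loci were called and 7 had an unadjusted p under 0.05, while 0.615% of all loci were called. The lowest adjusted p was 0.107. The higher means of sahh1 at day 4 are therefore not shown to differ from the other ages for any single locus. Leaving out sahh1 sample 2 of day 4 gave 7 calls, leaving out sahh1 sample 1 of day 4 gave 2, and leaving out wild-type sample 1 of day 4 gave 1.

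Within a group, the mitochondrial loci moved up or down together between the 2 samples. Sample 1 was the higher one at 97 of 97 loci in sahh1 at day 4, at 87 in wild type at day 4, at 2 in each genotype at day 7, at 0 in sahh1 at day 10 and at 97 in wild type at day 10. At day 1 it was higher at 36 loci in sahh1 and 68 in wild type. Over all loci the share ranged from 37.8% to 54.7%. The median difference, sample 1 minus sample 2, was 2.17 in sahh1 and 0.47 in wild type at day 4, -1.09 and -0.81 at day 7, and -0.75 and 1.16 at day 10, with medians over all loci of -0.060 to 0.028.

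The spread of a mitochondrial locus between samples was accordingly larger than that of a typical locus from day 4 on. The median SD at day 4 was 1.53 in sahh1 and 0.331 in wild type, against 0.282 and 0.129 over all loci. At day 7 it was 0.769 in sahh1 and 0.570 in wild type, against 0.134 and 0.136, and at day 10 it was 0.529 in sahh1 and 0.819 in wild type, against 0.126 and 0.136.

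Plastid-encoded transcripts shared this movement between samples. Their median difference, sample 1 minus sample 2, was 1.67 in sahh1 and 0.41 in wild type at day 4, -0.50 and -0.52 at day 7, and -0.31 and 0.72 at day 10. The sign was that of the mitochondrial loci in 7 of the 8 groups, the exception being sahh1 at day 1, with 0.043 for the plastid loci and -0.074 for the mitochondrial ones. The nuclear-encoded respiratory chain list had medians of -0.15 to 0.027 over the 8 groups. The labels give no batch that could be set against these samples, and a cause was not tested.

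With age, however, the plastid loci did not follow the mitochondrial ones. Between day 1 and day 4, 12 of 67 plastid loci were called higher and 0 lower in sahh1, with a median of 0.41, where 22.8% of all loci were called higher and 26.3% lower. In wild type 10 were called higher and 2 lower, with a median of -0.019, where 24.1% of all loci were called higher and 27.7% lower. The shares called higher were below those of all loci, and few or 0 plastid loci were called lower. The difference between the 2 sets is a description and was not tested.

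A stretch of chromosome 2 behaved like the mitochondrial loci. Of 178 array loci numbered AT2G07, 174 are placed in the reference annotation, and 82 that follow each other there, AT2G07771 to AT2G07739, were mostly lower at day 4 than at day 1. The ends of this run were chosen after the values were seen, so its values are a description. In wild type 70 of the 82 loci were called lower at day 4 than at day 1, with a median of -2.82, and in sahh1 42 were, with a median of -1.77. Of all loci 27.7% were called lower in wild type and 26.3% in sahh1. The other 96 AT2G07 loci had 13 called lower and 13 higher in wild type, with a median of 0.062. Both shares are below those of all loci, 27.7% lower and 24.1% higher. At day 4 the median difference of the run, sahh1 minus wild type, was 1.09, against 1.08 for the ATMG loci. Here too it rested on 1 sample, since the median of the run against the wild-type mean was 2.29 in sahh1 sample 1 and -0.094 in sample 2. Its median difference between samples had the sign of the mitochondrial loci in 8 of 8 groups.

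Named loci of the run followed the same course. ABCI5 (AT2G07771), whose name is that of a transporter family, measured 10.80 and 10.46 in wild type at day 4, against 12.87 and 12.87 at day 1. ABCI4 (AT2G07681) measured 10.68 and 10.35 in wild type at day 4, against 12.93 and 13.04 at day 1. Their differences were -2.24 and -2.47. In the run AT2G07732 had a positive difference (0.27 in sahh1 and 0.48 in wild type), and AT2G07739 had 0.15 in sahh1 and -0.58 in wild type. Neither was called in wild type. Since the nuclear copy and the organelle genome can match the same probes, their transcripts cannot be told apart in these values.

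At day 1 the differences of the run between the genotypes were small too, between -0.16 and 0.19. Of its loci 0 were called, by the same test with a spread shared by all groups, which does not show equality. Of the other 96 AT2G07 loci 8 were called higher in sahh1 at day 1, by up to 3.86 on the log2 scale, and 0 lower, where 2.16% of all loci were called higher.

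**Figure D5:**
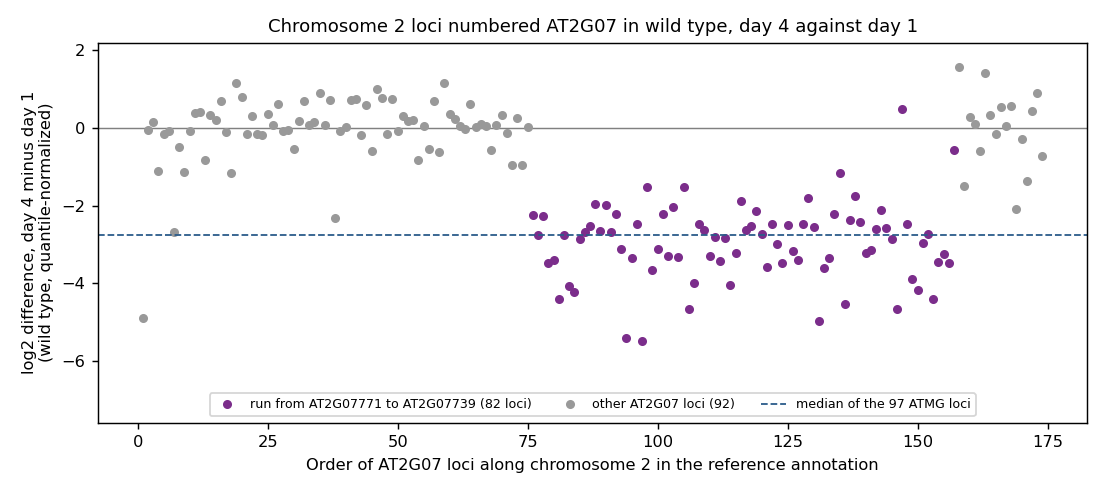
Log2 difference in wild type, day 4 minus day 1, after quantile normalization (y axis), for 174 AT2G07 loci in their order along chromosome 2 (x axis, rank). The 82 loci of the run (purple) lie around the median of the ATMG loci (dashed, -2.76) with AT2G07732 and AT2G07739 near 0, while most of the other loci (grey) lie around 0.

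Many nuclear genes for mitochondrial functions were also lower at day 4, with smaller median differences. Of 22 nuclear-encoded respiratory chain genes, 15 were called lower at day 4 than at day 1 in sahh1 and 13 in wild type, with 0 higher in either, where 26.3% of all loci were called lower in sahh1 and 27.7% in wild type. The median differences were -0.58 in sahh1 and -0.47 in wild type. CYTC-2, a cytochrome c that carries electrons to the terminal oxidase, differed by -2.66 in sahh1 and -1.72 in wild type (limma, adjusted p = 7.97e-06 and 0.000175). COX6B, a subunit of the terminal oxidase, changed by -0.84 in sahh1 and -0.98 in wild type, and CI51, a subunit of the first complex of the chain, by -0.72 and -0.68. All of these falls passed the test.

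Several genes of the machinery of mitochondrial gene expression were also lower at day 4, set against the same shares of all loci. Of 11 RNA processing genes 7 were called lower in each genotype, and 1, EMB2730, was called higher in sahh1, by 0.52. On deposited values EMB2730 measured 12.19 and 12.48 in sahh1 at day 4, against 12.92 and 12.94 at day 1. Its direction thus depends on the normalization. The age comparisons of the nuclear lists were not recomputed under other settings. The editing factors MORF1 and RIP1 changed by -1.26 and -1.18 in sahh1 and by -1.12 and -1.29 in wild type. The splicing factor nMAT1 changed by -1.04 in sahh1 and -1.14 in wild type. Of 3 transcription genes 3 were called lower in sahh1 and 2 in wild type, among them MGP3, listed for a phage-type RNA polymerase, by -1.27 in sahh1 and -0.81 in wild type. MSH1, which limits recombination of the mitochondrial genome, changed by -1.23 in sahh1 and -1.70 in wild type. Of 6 genome maintenance genes 2 were called lower in each genotype, a share near that of all loci.

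The list of alternative respiration and mitochondrial stress genes moved both ways between day 1 and day 4. In sahh1 5 of 13 were called higher and 5 lower, and in wild type 4 and 4, while 22.8% and 26.3% of all loci were called so in sahh1 and 24.1% and 27.7% in wild type. The wild-type counts are near the shares of all loci. The alternative oxidases bypass part of the respiratory chain. AOX1A rose by 1.62 in sahh1 and 2.40 in wild type, AOX1D by 2.28 and 4.61, and the alternative NADH dehydrogenase gene NDA1 by 3.14 and 3.29. AOX2 changed by -3.09 in sahh1 and -3.40 in wild type. The 2 sahh1 samples of day 4 differed, with 13.13 and 12.11 at AOX1A and 5.45 and 7.43 at AOX1D. Low values enter some of these changes: AOX1D measured 4.05 to 4.40 in the samples of day 1, and AOX2 4.16 and 4.47 in wild type at day 4. From day 4 to day 7, 4 of the 13 were called lower in sahh1 and 8 in wild type, with 0 higher. Of all loci 5.88% were called lower and 5.72% higher in sahh1, and 11.4% and 10.9% in wild type.

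Between the genotypes, calls among these nuclear lists were found at day 4 in the stress list and nowhere else: of the 5 lists, at 4 ages each, 3 members passed. Of the 13 genes 1 was called higher and 2 lower, where 0.78% and 0.833% of all loci were at day 4. NDB2, an alternative NADH dehydrogenase, measured 10.92 and 10.96 in sahh1, against 11.75 and 11.87 in wild type, a difference of -0.87 ± 0.15 (limma, adjusted p = 0.0244). HSP23.6-MITO, a small heat shock protein of mitochondria, measured 8.15 and 8.23 in sahh1, against 10.18 and 9.55 in wild type, a difference of -1.68 ± 0.25 (limma, adjusted p = 0.0135). AT5G09570, for which the reference gives no symbol, measured 8.54 and 8.60 in sahh1, against 6.15 and 5.48 in wild type, a difference of 2.76 ± 0.35 (limma, adjusted p = 0.00511). In all 3 genes the 2 sahh1 samples of day 4 were close to each other and the genotypes did not overlap. Since the test that picked them favours close samples, this is no contrast with the mitochondrial loci. Not every gene of the list was so close, as AOX1A measured 12.21 and 11.13 and NDA1 13.08 and 11.95 in these samples. AT5G09570 measured 9.31 and 9.16 in sahh1 at day 7, against 8.01 and 7.06 in wild type. At day 10 it measured 8.34 and 8.56, against 6.91 and 7.93, and at day 1 6.86 and 6.93, against 7.24 and 7.05. None of these was called. Opposite to day 4, both sahh1 samples were above both of wild type for NDB2 at days 7 and 10 and HSP23.6-MITO at day 10. Without wild-type sample 1 of day 4 the calls of NDB2 and HSP23.6-MITO were lost (adjusted p = 0.0931 and 0.0823), and without sample 2 those of NDB2 and AT5G09570 (adjusted p = 0.171 and 0.0570). All 3 calls were lost with array weights (adjusted p = 0.404 to 0.791) and with only the 2 groups of day 4 in the fit (adjusted p = 0.172 to 0.598).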

How the data were processed

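Total RNA of whole seedlings was labelled with Cy3 and hybridised to NimbleGen arrays, per the labels' protocols. The authors deposited normalized intensities that are not log-transformed, 1 for each locus and array. RMA is named in the submitters' processing notes, with no version, and the build of the table is not given in the sources used here. Log2 was taken before any test.

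Within each group the arrays numbered 1 and 2, and 3 and 4, were averaged into 2 samples. Wild-type arrays without a number were taken as number 1. Limma 3.58.1 in R 4.3.3 was fitted on 16 samples with 8 group means, 8 residual degrees of freedom and prior degrees of freedom of 3.16 (genotype) and 2.54 (age). Adjustment was by Benjamini-Hochberg over the 30385 loci, with calls at an adjusted p under 0.05. Genotype contrasts used deposited values, and age contrasts and the F test used quantile normalization over 32 arrays. Fits were tested on simulated data. The number of arrays limits the precision.

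The members and the 6 nuclear lists, written from general knowledge and including stable reference genes for scaling, were chosen with earlier results of these data known. Loci were to be named when called for genotype, when among the largest called changes between ages, or by gene name. As 0 of the 97 identifiers have a name in the reference (TAIR10.1), at most 2 loci are named per direction and contrast, loci chosen by gene name, by brightness or by a matching chromosome 2 name are not given, and called list members are given as examples. Same-numbered samples of the genotypes deviated with correlations of -0.445, 0.113, 0.632 and -0.0567 at days 1, 4, 7 and 10 over all loci (-0.634, 0.0583, 0.900 and -0.598 over the mitochondrial ones), so numbers were not taken to pair samples.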

Additional observations from a re-analysis of the deposited data

How the results depend on the processing

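Counts and medians of the mitochondrial loci were recomputed 205 times, beside the fits that leave out 1 sample. Of these 205, 164 stayed within 1.5 times the count or 1 SD and 41 moved. Reversal was checked only for SAHH1, the genotype calls at day 4 and the largest called changes of mitochondrial loci between ages. None of these reversed. Other named loci were not checked, and the rise of EMB2730 in sahh1 was a fall on deposited values. With reference-gene scaling the median of wild type day 10 against day 7 was -0.090. On deposited values the loci called were 91 for sahh1 day 4 against day 1, 60 for day 7 against day 4 and 12 for day 10 against day 7, with medians of -2.67, 1.85 and -0.53. In wild type, deposited values gave medians of -3.67, 3.07 and -0.62, and 97 and 7 calls at the later steps. On deposited values the median of all loci itself rose by 1.43 in sahh1 and 1.40 in wild type from day 4 to day 7. These calls thus include a change shared by the whole array. Cyclic loess gave a median of -2.43 for wild type day 4 against day 1, 9 calls for day 7 and 1 for day 10. Scaling to reference genes moved the median of all loci by -0.059 to 0.025 between genotypes and by -0.17 to 0.42 between ages, and gave 0 genotype calls at day 4, 7 for sahh1 day 7 and 43 for wild type day 7. With 32 arrays as samples there were 34 genotype calls at day 4, 1 at day 10, 71, 5 and 2 at the steps of sahh1, 53 and 2 at days 7 and 10 of wild type, and 9 by the F test. With the sample as a random block these were 13, 66 and 2 in sahh1 days 4 and 7, 36 and 1 in wild type, and 3. Array weights gave 0 genotype calls at day 4, 16 for sahh1 day 4, 25 for wild type day 7 and 1 for day 10. The robust trend and leaving out the dimmest 25% of loci each gave 1 for wild type day 10. Fitting only the 2 groups compared gave 0 at day 4. The replicate block gave 8 for wild type day 7 and cost ATMG01370 and NDB2 their genotype calls at day 4 (adjusted p = 0.0631 and 0.0555). A block with the sahh1 numbers crossed at day 1, chosen after seeing the data, gave 4 at day 4, as did quantile normalization, under which 4 rather than 3 genes of the stress list were called at day 4. Leaving out 1 sample in turn gave 0 to 0 genotype calls at days 1, 7 and 10 and 0 to 57 at day 4, where the calls were 57 higher without sahh1 sample 2 and 2 lower without sahh1 sample 1, with medians of -0.040 to 0.068, -0.70 to 0.47, -0.64 to 0.55 and 0.038 to 2.13. For the steps of sahh1 it gave 13 to 79, 0 to 28 and 0 to 0 calls with medians of -2.85 to -0.56, -1.11 to 1.16 and -0.14 to 0.97. For wild type it gave 44 to 90, 3 to 38 and 0 to 1 calls with medians of -2.96 to -2.51, 0.83 to 1.78 and -0.42 to 0.81, and 0 to 7 by the F test. Where a sample was left out, the lone one was assumed to vary like the other groups. Leaving out a sahh1 sample of day 4 also took the spread of that group, the largest of the 8, out of the shared estimate. The calls of such fits are therefore not read as evidence. The causes were not tested. Leaving out loci with a near-identical protein on chromosome 2 was not run.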
